A study of Mus musculus with 4 samples.

Results

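The subunit genes of respiratory complexes II to V were followed in tibialis anterior (TA) muscle, a shin muscle of fast fibres, after denervation in WT and Fgf21KO mice. Members were taken by gene symbol from the count table (succinate dehydrogenase Sdha to Sdhd, the Uqcr genes with Cyc1, the Cox4 to Cox8 genes, the Atp5 genes, and the mitochondrially encoded CYTB, COX1, COX2, COX3, ATP6 and ATP8). This gave 52 of 13825 genes. Of these, 42 are nuclear subunit genes, with 4 in complex II, 9 in complex III, 12 in complex IV and 17 in complex V, 6 are mitochondrial genes, and 4 are pseudogenes of Atp5l or Atp5pb that carry a matching symbol.

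The 4 libraries are named by genotype and surgery. WS and WD are the sham and the denervated muscle of WT mice, and KS and KD are those of Fgf21KO mice. The ratio of WD to WS is called the WT pair here, and that of KD to KS the Fgf21KO pair. All mice were adult males, and Fgf21KO mice lack Fgf21, a secreted growth factor, in the whole body. The WT mice were C57BL/6J, and the Fgf21KO line came from another laboratory. A piece of the sciatic nerve of the left leg had been removed 14 days before the muscles were taken, and the right leg, which kept its nerve, gave the control muscle. The sample labels and the paper call the control muscle sham, while the series text says only that it kept its nerve. The RNA of 4 muscles was pooled for each group, which leaves 1 library for each group and no replicates within a group. For gene expression work, the paper's methods describe sham surgery and denervation in opposite limbs of the same mice. Fgf21 itself was not analysed here, which leaves the genotype labels unchecked.

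Complex II oxidises succinate and passes electrons to ubiquinone, and all of its subunits are encoded in the nucleus. Complex III moves electrons from ubiquinone to cytochrome c, and complex IV from cytochrome c to oxygen, both with proton pumping. Complex V, the ATP synthase, uses the proton gradient to make ATP, with a catalytic F1 head, a membrane rotor of c subunits and a peripheral stalk that holds the head still. Complexes III to V are built from subunits of both genomes, the mitochondrial genes supplying parts of the redox core and of the proton path. Skeletal muscle is rich in these complexes, and several complex IV subunits exist as a muscle form and a form found in most tissues.

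Libraries held 25249879 to 34141303 counts over the genes analysed. Counts were scaled by the TMM method, which sets the libraries level on the bulk of genes, and levels are given as scaled CPM, the counts of a gene relative to the scaled total of its library. The TMM factors were 0.92 and 0.87 for the sham libraries (WS, KS) and 1.12 and 1.115 for the denervated libraries (WD, KD). The scaling matters for these genes. The 13 mitochondrial protein genes took 27.0% and 30.4% of all counts in the sham libraries (WS, KS) and 19.4% and 20.6% in the denervated libraries (WD, KD). With TMM, the 13084 tested genes had a median log2 ratio of 0.01 in both pairs. Without it, on total counts alone, that median was 0.29 in the WT pair and 0.36 in the Fgf21KO pair, so changes given here are relative to the bulk of genes. Single ratios carry 95% intervals that cover counting error only.

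Denervation was tested across all 4 libraries with the quasi-likelihood test of edgeR, in an additive model of surgery and genotype in which the WT and Fgf21KO libraries stand in as replicates of each surgery. That model leaves 1 residual degree of freedom, so p-values rest largely on the spread shared by all genes, and whether the genotypes differed in their response was not testable. Of the 52 members, 51 had a mean count of at least 10 and were tested. The pseudogene Atp5l-ps1, with 6 to 9 counts per library, was not.

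Denervation was followed by lower levels of most subunit genes of all 4 complexes, by less than 2-fold. In both genotypes the mitochondrial genes had lower ratios than most nuclear genes. Cox8a, a small subunit of complex IV, was the exception that rose. At an adjusted p-value below 0.05 (edgeR, Benjamini-Hochberg over all genes), 43 of 51 tested members fell, against 27.0% of all genes tested, and 1 rose, against 26.6% of all genes tested. The fallen members comprised all 6 mitochondrial genes and 37 of 42 nuclear genes. The 7 that passed in neither direction were Cox7a2l, Atp5h, Atp5g2, Atp5mpl and 3 pseudogenes. No member passed when a 2-fold change was required as well, as 13.1% of all genes did. DESeq2's Wald test also gave 0 at that criterion. In edgeR 45 members had an unadjusted p below 0.05, as did 7584 of all 13084 genes tested. The median log2 change of the tested members was -0.39, with a range of -0.89 to 0.48, beside a median of 0.01 over all genes tested.

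The direction of the nuclear genes depends on the scaling. On total counts alone 20 members fell and 6 rose, where 12.8% of all genes tested fell and 46.7% rose. All 6 mitochondrial genes fell on that scaling too, but only 14 of 42 nuclear genes did. As a share of the counts of a library, the nuclear members took 2.402% (Wilson 95% interval 2.396 to 2.408) in WS against 2.269% (2.264 to 2.274) in WD, and 2.341% (2.336 to 2.346) in KS against 2.204% (2.199 to 2.209) in KD. The 6 mitochondrial members took 17.21% (17.2 to 17.23), 12.96% (12.95 to 12.97), 19.18% (19.17 to 19.2) and 13.7% (13.68 to 13.71) in the same order. In each genotype both shares were lower in the denervated library, by a larger part for the mitochondrial genes.

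In 38 of 42 nuclear genes and in 6 of 6 mitochondrial genes both denervated libraries lay below both sham libraries, which held for 36.7% of all genes tested. At least 1.5-fold lower values were found for 10 members in the WT pair (17.7% of all genes) and for 15 in the Fgf21KO pair (16.7%). No member was 2-fold apart in either comparison, against 14.8% of all genes in the WT pair and 13.6% in the Fgf21KO pair.

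**Figure D1:**
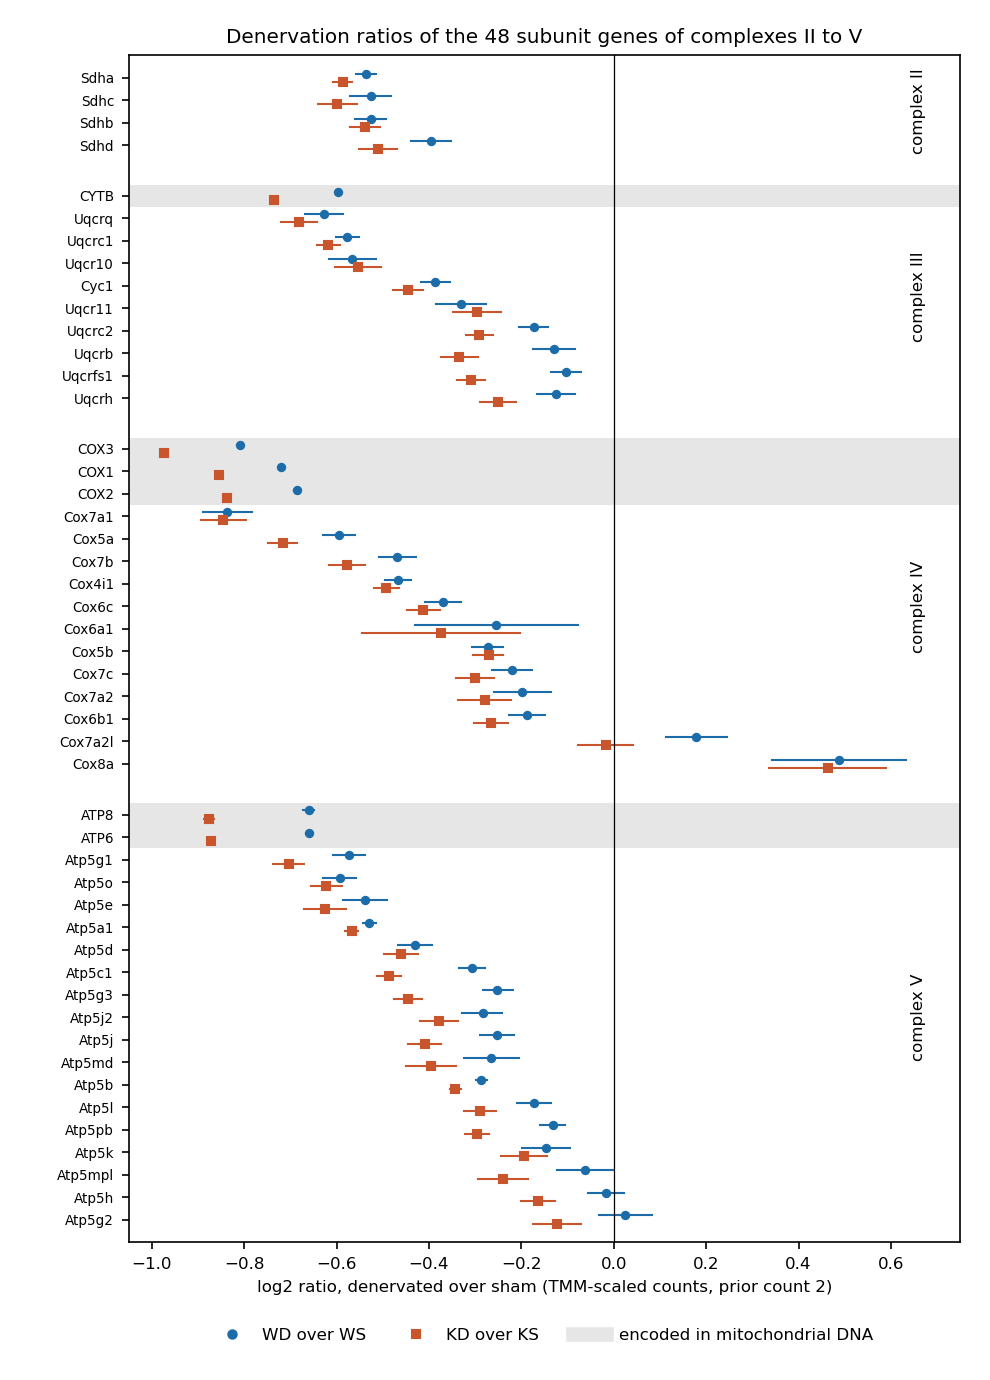
Log2 ratio of denervated over sham (x axis, TMM-scaled counts) for each of the 48 subunit genes of complexes II to V (y axis), with circles for WD over WS, squares for KD over KS, horizontal lines for 95% counting intervals and grey bands for mitochondrial genes. Every mitochondrial gene lies between -0.97 and -0.60, complex II lies between -0.60 and -0.395, and Cox8a lies near 0.5 on the right.

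The start regions of the nuclear members were searched for the words of factors known to act on respiratory genes. NRF1 and GABPA (NRF2) are activators of many such genes, the estrogen-related receptors (ERR) act with the coactivator PGC-1alpha in muscle, and YY1 binds near many start sites. RefSeq start regions on GRCm38.p6, 250 bases before to 50 after the start, were at hand for 33 of the 42 nuclear genes. The NRF1 word GCGCATGC, on either strand, was in 7 of 33 (21.2%), against 5.55% of the start regions of 9744 tested genes and 2.80% of 27025 in all. The GABPA word CCGGAAG was in 12 of 33 (36.4%, against 18.8% and 9.12%), the ERR word AAGGTCA in 5 (15.2%, against 3.01% and 4.66%) and the YY1 word ATGGCGG in 1 (3.03%, against 8.66% and 4.19%). The NRF1 words are shown in the 30 bases around them, with the word, or overlapping words on both strands, in capitals.

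Sdhb, chr4:140961206-140961235, plus strand: aagcccagtggGCATGCGCcctacgggccg
Uqcrc1, chr9:108936668-108936697, plus strand: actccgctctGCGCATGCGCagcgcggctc
Uqcr11, chr10:80406807-80406836, minus strand: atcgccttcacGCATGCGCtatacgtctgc
Cox6a1, chr5:115349101-115349130, minus strand: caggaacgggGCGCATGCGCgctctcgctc
Atp5k, chr5:108434430-108434459, minus strand: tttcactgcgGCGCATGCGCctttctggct
Atp5l, chr9:44920963-44920992, minus strand: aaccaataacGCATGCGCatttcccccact
Atp5g2, chr15:102671070-102671099, minus strand: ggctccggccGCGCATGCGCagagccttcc

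The log2 changes of these 7 genes ran from -0.60 for Uqcrc1 and -0.53 for Sdhb to -0.17 for Atp5k and, without passing the test, -0.05 for Atp5g2. The median log2 change was -0.31 with the NRF1 word and -0.33 without it (26 genes), -0.27 with the GABPA word and -0.35 without it, and -0.35 with the ERR word and -0.32 without it. For each of these words the ranges with and without it overlapped, and a word in the sequence does not show that a factor was bound.

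The isoform pair with unlike ratios, Cox7a1 and Cox7a2, held none of the 4 words. The bases before their RefSeq starts are given because the pair parts the muscle form from the form of most tissues, with nothing in capitals. Of these, 27 bases of Cox7a1 and 25 of Cox7a2 lie in an annotated exon.

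Cox7a1, chr7:30183921-30184170, plus strand: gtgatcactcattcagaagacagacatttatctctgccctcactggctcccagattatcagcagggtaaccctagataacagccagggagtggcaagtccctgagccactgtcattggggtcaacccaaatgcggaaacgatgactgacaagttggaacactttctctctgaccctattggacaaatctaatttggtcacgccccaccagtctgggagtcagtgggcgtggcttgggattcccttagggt
Cox7a2, chr9:79759854-79760103, minus strand: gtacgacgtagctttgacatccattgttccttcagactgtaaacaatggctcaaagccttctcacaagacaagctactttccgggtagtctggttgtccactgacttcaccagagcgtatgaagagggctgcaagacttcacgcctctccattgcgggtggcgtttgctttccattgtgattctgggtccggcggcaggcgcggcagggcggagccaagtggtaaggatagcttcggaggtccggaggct

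Over 250 bases each, neither holds the NRF1, GABPA, YY1 or ERR word on either strand, and the absence of these letters from the window says nothing about the factors.

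Complex II was the most even of the complexes. Sdha, the flavoprotein that oxidises succinate, stood at 1487 CPM in WS and 1494 in KS, and at 1025 in WD and 995 in KD. Sdhb, the iron-sulfur subunit, stood at 606 and 603 CPM in the sham libraries and at 421 and 415 in the denervated ones. The membrane anchors that bind haem and ubiquinone followed. Sdhc went from 361 and 363 CPM to 251 and 240, and Sdhd from 358 and 377 CPM to 272 and 265. For all 4 genes the denervated libraries lay below the sham libraries, while WS and KS lay within 0.07 of each other on the log2 scale. The log2 changes were -0.56 (SE 0.075) for Sdha, -0.53 (SE 0.071) for Sdhb, -0.56 (SE 0.070) for Sdhc and -0.45 (SE 0.071) for Sdhd, with edgeR adjusted p-values of 2.45e-07, 2.58e-07, 8.75e-08 and 3.56e-06. On total counts alone the complex II median was still below 0 (-0.24 in the WT pair, -0.205 in the Fgf21KO pair).

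Complex III fell with a wider spread. All 9 nuclear genes passed the test, with log2 changes of -0.66 to -0.19 and a median of -0.31. CYTB, the mitochondrial cytochrome b that forms the quinone sites, went from 38020 CPM in WS and 43840 in KS to 25140 in WD and 26330 in KD. Its log2 change was -0.67 (SE 0.103, edgeR adjusted p 2.84e-06), below that of every nuclear gene of the complex, though by little from Uqcrq (-0.655). In the WT pair Uqcrq was the lower, at -0.63 against -0.60 for CYTB. Among the redox subunits, Cyc1, cytochrome c1, stood at 655, 501, 629 and 462 CPM in WS, WD, KS and KD, and changed by -0.42 (SE 0.071, edgeR adjusted p 1.42e-05). Uqcrfs1, the Rieske iron-sulfur protein, stood at 594, 552, 644 and 520 CPM in the same order and changed by -0.21 (SE 0.074, edgeR adjusted p 0.0196), though on total counts alone it was at 0.11. The redox subunits of the same complex therefore spanned a range of log2 ratios that their counting intervals do not bridge. In the WT pair Uqcrfs1 was at -0.10 and Cyc1 at -0.39.

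The 2 core proteins of complex III also differed. Uqcrc1 was at -0.58 in the WT pair and -0.62 in the Fgf21KO pair, against -0.17 and -0.29 for Uqcrc2. Of the small structural subunits, Uqcrq was the lowest, with 431 and 439 CPM in the sham libraries and 279 and 274 in the denervated ones (log2 change -0.66, SE 0.071, edgeR adjusted p 5.24e-09). Uqcrh, the hinge protein, was the highest, with 352 and 382 CPM in the sham libraries and 323 and 321 in the denervated ones (-0.19, SE 0.071, edgeR adjusted p 0.0268). DESeq2 did not call Uqcrh, and on total counts alone its change was above 0 (0.13).

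Complex IV held both ends of the nuclear range. COX1, which carries the oxygen-reducing centre, was the most abundant member of all, at 88380 CPM in WS and 53640 in WD, and at 102900 in KS and 56890 in KD. COX2, which takes electrons from cytochrome c, stood at 16960, 10540, 20690 and 11580 CPM, and COX3, the third core subunit, at 20130, 11490, 25330 and 12890 CPM. In all 3 genes the order of the libraries was KS, WS, KD and WD from high to low. The log2 changes were -0.79 (SE 0.113) for COX1, -0.76 (SE 0.095) for COX2 and -0.89 (SE 0.097) for COX3, the lowest of all members, with edgeR adjusted p-values of 8.16e-07, 7.57e-08 and 6.06e-09.

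Of the 12 nuclear genes of complex IV, 10 fell and 1 rose, with a median log2 change of -0.29. Cox7a1, the isoform of subunit 7A found in heart and skeletal muscle, stood at 284 CPM in WS and 301 in KS, and at 159 in WD and 168 in KD. Its change of -0.84 (SE 0.070, edgeR adjusted p 3.28e-11) was the lowest of the nuclear members. Cox7a2, the isoform of most tissues, stood at 163, 142, 177 and 146 CPM in WS, WD, KS and KD and changed by -0.24 (SE 0.071, edgeR adjusted p 0.00562), though on total counts alone it was at 0.08. The ratio of Cox7a1 to Cox7a2 counts within a library does not depend on the scaling. It was 1.74 (95% counting interval 1.67 to 1.81) in WS and 1.12 (1.08 to 1.16) in WD, and 1.70 (1.64 to 1.76) in KS and 1.15 (1.10 to 1.20) in KD. The sham intervals and the denervated intervals do not overlap.

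Cox7a2l, a protein related to subunit 7A that takes part in joining complexes III and IV, was at 133, 151, 151 and 149 CPM in WS, WD, KS and KD. Its change did not pass the test (0.08, SE 0.073, edgeR adjusted p 0.373). The WT ratio was 0.18 and the Fgf21KO ratio -0.02, and only the WT counting interval (0.11 to 0.24) excludes 0, but the difference between genotypes was not tested.

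Cox8a, the subunit 8 isoform of most tissues, was scarce, at 24.8 CPM in WS and 28.0 in KS, and stood at 34.9 in WD and 38.5 in KD. Both denervated libraries lay above both sham libraries. The log2 ratio was 0.49 (counting interval 0.34 to 0.63) in the WT pair and 0.46 (0.34 to 0.59) in the Fgf21KO pair, and the change over both genotypes was 0.48 (SE 0.092, edgeR adjusted p 7.09e-05). Against Cox4i1, the abundant form of subunit 4, the per-length level of Cox8a was 0.0375 in WS and 0.0727 in WD, and 0.0431 in KS and 0.0836 in KD. Cox6a1, the subunit 6A isoform of most tissues, was as scarce, at 20.4, 17.1, 20.5 and 15.8 CPM. It changed by -0.32 (SE 0.112, edgeR adjusted p 0.0184), was not called by DESeq2, and was at 0.01 on total counts alone. The 2 scarce genes thus went in opposite directions. The muscle partners of Cox6a1 and Cox8a were not analysed here.

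The remaining complex IV genes lay between these ends. Cox5a (-0.66), Cox7b (-0.52) and Cox4i1 (-0.48) were the lowest after Cox7a1. Cox4i1 stood at 910 and 890 CPM in the sham libraries and 658 and 633 in the denervated ones (SE 0.072, edgeR adjusted p 1.94e-06). Cox6c, Cox5b, Cox7c and Cox6b1 had changes of -0.39, -0.27, -0.26 and -0.23, all past the threshold, and Cox6b1 was at 0.09 on total counts alone.

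**Figure D2:**
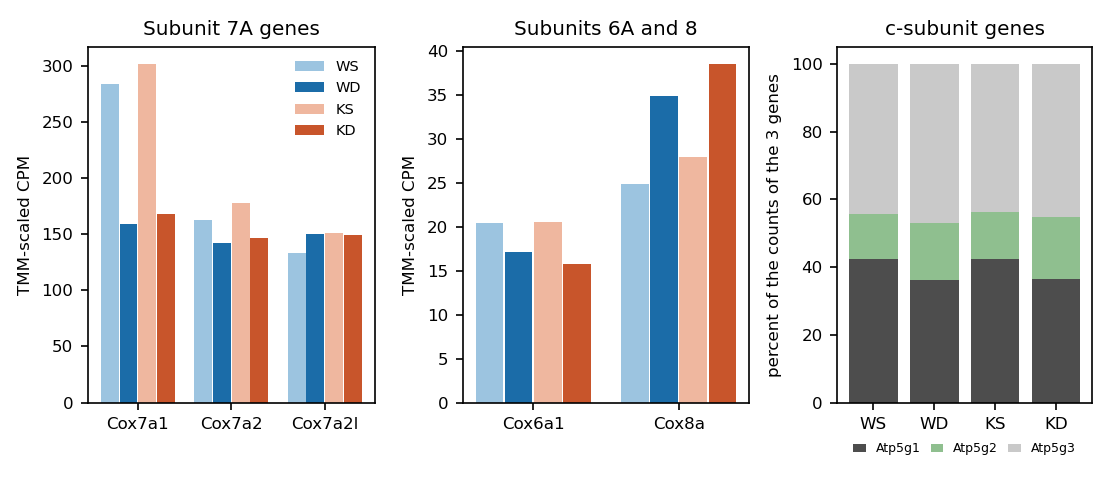
The left and middle panels give TMM-scaled CPM (y axis, from 0) of the subunit 7A, 6A and 8 genes, with 1 bar per library, and the right panel gives the percent of the counts of the 3 c-subunit genes that each takes in a library. Cox7a1 falls from 284 and 301 to 159 and 168 CPM, and Cox7a2 falls less, from 163 and 177 to 142 and 146 CPM. Cox8a is higher in WD and KD, and the Atp5g1 share drops from 42.5% and 42.3% to 36.1% and 36.6%.

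Complex V was the largest set. Of its 17 nuclear genes 14 fell and none rose, with a median log2 change of -0.33. In edgeR 15 of the 17 had an unadjusted p below 0.05, as did 7584 of all 13084 genes tested. Both mitochondrial genes, which encode subunits of the membrane part, fell. ATP6, subunit a, stood at 18460 CPM in WS and 11690 in WD, and at 21830 in KS and 11930 in KD, and ATP8 at 5140, 3253, 5903 and 3214 CPM. Their log2 changes were -0.77 (SE 0.097, edgeR adjusted p 9.59e-08) and -0.77 (SE 0.085, edgeR adjusted p 9.58e-09). The reading frames of ATP8 and ATP6 overlap by 43 bases on the mitochondrial DNA, and reads there could have been counted for either gene.

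In the F1 head all 5 genes fell, with a median of -0.45. Atp5a1, the alpha subunit, stood at 3628, 2515, 3612 and 2438 CPM in WS, WD, KS and KD (-0.55, SE 0.080, edgeR adjusted p 1.18e-06). Atp5b, the catalytic beta subunit, was the most abundant nuclear member and stood at 4118, 3375, 4184 and 3299 CPM (-0.32, SE 0.081, edgeR adjusted p 0.00174), and was at 0.01 on total counts alone. In the protein alpha and beta subunits are present in equal number, whereas the log2 ratio in the WT pair was -0.53 for Atp5a1 and -0.29 for Atp5b. Of the rotor and its neighbours, Atp5c1, Atp5d and Atp5e had changes of -0.40, -0.45 and -0.58.

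The peripheral stalk was uneven. Atp5o, the oligomycin sensitivity protein, changed by -0.61, although its annotation holds an overlapping longer entry with which reads may be shared, whereas Atp5j, Atp5pb and Atp5h were at -0.33, -0.21 and -0.09, and Atp5h did not pass the test (edgeR adjusted p 0.299). Among the supernumerary subunits the changes were small, from -0.33 for Atp5j2 to -0.15 for Atp5mpl, and 4 of 5 passed. The 3 tested pseudogenes were at -0.43 to -0.21 and none passed. With at most 12.4 CPM they held few reads, which near-identical copies may share.

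The c ring is made of a single protein that 3 genes encode, and the mature proteins are the same. Atp5g1 stood at 582 CPM in WS and 391 in WD, and at 629 in KS and 386 in KD, and fell by 0.64 on the log2 scale (SE 0.072, edgeR adjusted p 1.3e-08). Atp5g3 stood at 606, 509, 649 and 476 CPM and changed by -0.35 (SE 0.073, edgeR adjusted p 0.000202). Atp5g2 stood at 180, 183, 209 and 192 CPM, with WD and KD inside the span of the sham libraries, and its change of -0.05 did not pass (SE 0.072, edgeR adjusted p 0.584). On total counts alone Atp5g2 was at 0.27. Within a library, free of the scaling, the share of Atp5g1 among the counts of the 3 genes was 42.5% (Wilson 95% interval 42.0 to 43.1) in WS and 36.1% (35.6 to 36.6) in WD, and 42.3% (41.9 to 42.8) in KS and 36.6% (36.1 to 37.2) in KD. The share of Atp5g2 was 13.2% (12.8 to 13.5), 16.9% (16.5 to 17.3), 14.1% (13.7 to 14.4) and 18.2% (17.8 to 18.6) in the same order. Both shares moved the same way in the WT and Fgf21KO pairs, by more than the counting intervals. Between libraries of the same surgery the Atp5g1 intervals overlap, whereas those of Atp5g2 do not.

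The complexes were then set side by side on their nuclear genes. In the WT pair the median log2 ratio was -0.53 for complex II, -0.33 for complex III, -0.26 for complex IV and -0.27 for complex V. In the Fgf21KO pair it was -0.56, -0.33, -0.34 and -0.40. Complex II had the lowest median in both, but its range (-0.54 to -0.395 in the WT pair) lies inside those of complexes III (-0.63 to -0.10), IV (-0.84 to 0.49) and V (-0.59 to 0.025). The medians of complexes III, IV and V lay closer to each other than the genes within any of them. On total counts alone the medians of complexes IV and V were above 0 in the WT pair (0.02 each) and those of III and IV in the Fgf21KO pair (0.02 each), beside 0.29 and 0.36 for all genes. Subunits of 1 complex are not replicates of it, so these medians were not tested.

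The genomes differed more than the complexes did. The median log2 ratio of the 6 mitochondrial members minus that of the 42 nuclear members was -0.39 in the WT pair (-0.67 against -0.29) and -0.46 in the Fgf21KO pair (-0.86 against -0.40). Within complex IV the mitochondrial median was -0.72 and the nuclear median -0.26 in the WT pair, and within complex V they were -0.66 and -0.27. The ranges overlapped, since the nuclear genes Cox7a1 (-0.84) and Uqcrq (-0.63) lay below CYTB (-0.60) in the WT pair, and Cox7a1 (-0.845) lay below CYTB (-0.74) in the Fgf21KO pair. The ratio of summed mitochondrial to summed nuclear counts, which needs no scaling, was 7.16 (95% counting interval 7.15 to 7.18) in WS against 5.71 (5.70 to 5.73) in WD, and 8.20 (8.18 to 8.21) in KS against 6.21 (6.20 to 6.23) in KD. In each genotype the denervated library had the lower ratio, and WD and KD both lay below WS and KS. The counting intervals also do not meet between WS and KS or between WD and KD. These intervals cover counting error only, so their separation does not tell surgery from other differences between libraries.

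Per kb of transcript, so that levels can be set across genes, the mitochondrial members ran from 24800 to 57200 CPM per kb in WS and the nuclear members from 35.7 (Cox6a1) to 2150 (Atp5b), with medians of 26400 and 588. The ratio of the mean levels per kb, mitochondrial over nuclear, was 52.8 in WS against 41.5 in WD, and 59.9 in KS against 44.5 in KD. By complex it was 57.5, 48.4, 64.6 and 52.2 in III, 65.7, 51.5, 74.9 and 55.4 in IV, and 36.0, 28.0, 40.1 and 28.8 in V. In all 3 complexes the libraries stood in the order KS, WS, KD and WD. The library kit selects RNA by its poly(A) tail, which mitochondrial and nuclear messages carry in different lengths, so these ratios are of sequenced reads and not of molecules.

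**Figure D3:**
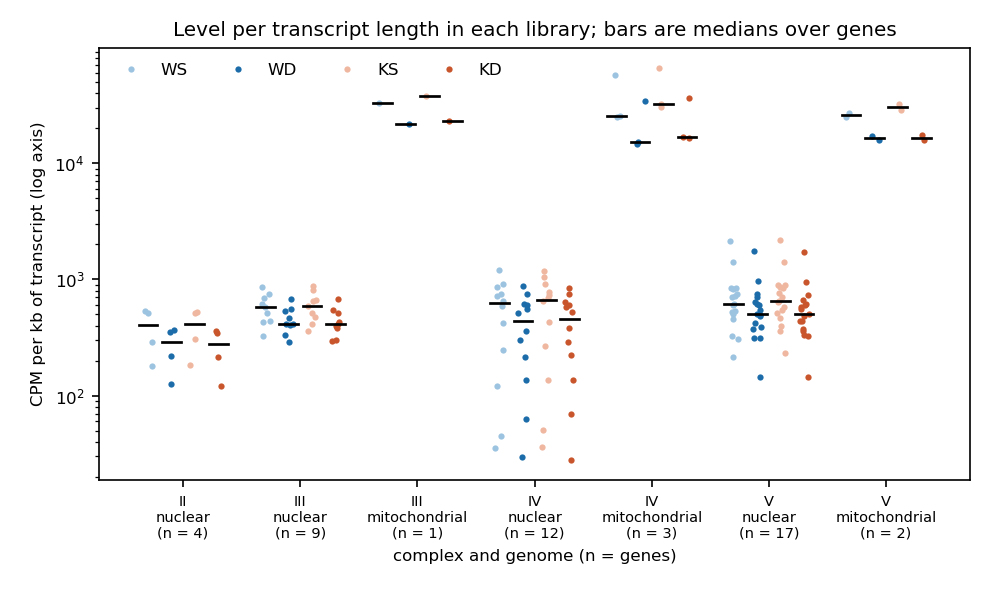
Level per kb of transcript (CPM per kb, log y axis) of each subunit gene in the 4 libraries, by complex and genome (x axis), with 1 point per gene and black bars for medians. The mitochondrial points lie at 14700 or above in every library, while no nuclear point exceeds 2180, and in each set the bars of WD and KD lie below those of WS and KS.

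The 7 complex I genes of the mitochondrial DNA were read beside the 6 members, since the mitochondrial DNA is transcribed as long RNAs that are then cut into single messages. All 7 fell, with a median log2 change of -0.89 and a range of -1.35 (ND2) to -0.65 (ND6), so that 13 of 13 mitochondrial protein genes fell. The range of the 6 members, -0.89 to -0.67, was narrower. ND2, ND4L (-0.97) and ND1 (-0.96) lay below that range, and ND6 lay just above it. ND6 is the only protein gene read from the opposite strand. Its ratio of -0.64 in the WT pair lay close to that of the adjoining CYTB (-0.60). ND5, which adjoins ND6 on the other side, was lower, at -0.80. On GRCm38 the members lie at chrM:5328-6872 (COX1), chrM:7013-7696 (COX2), chrM:7766-7969 (ATP8), chrM:7927-8607 (ATP6), chrM:8607-9390 (COX3) and chrM:14145-15288 (CYTB).

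**Figure D4:**
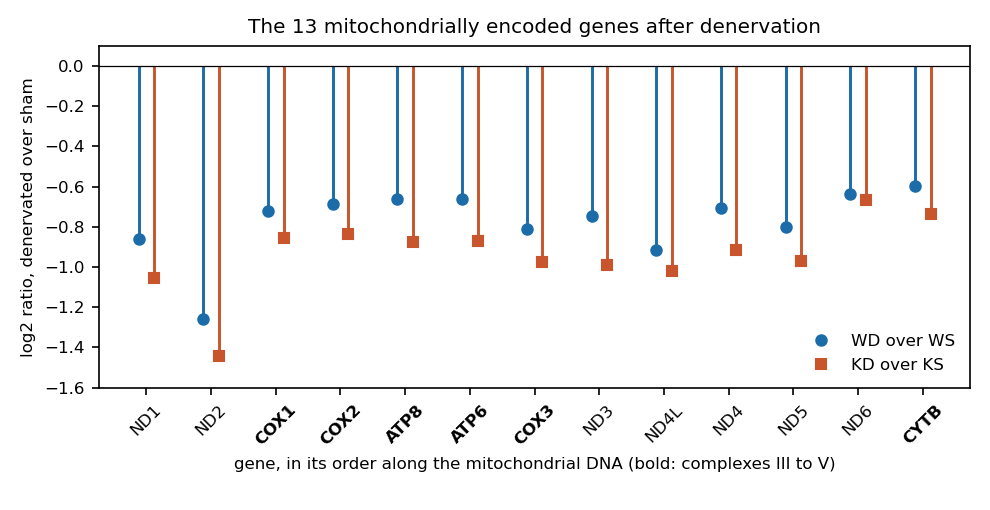
Log2 ratio of denervated over sham (y axis) for the 13 mitochondrially encoded protein genes in their order along the mitochondrial DNA (x axis), with circles for WD over WS and squares for KD over KS. All ratios lie between -1.44 (ND2) and -0.60 (CYTB), and in every gene the square lies below the circle.

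Genotype was tested in the same additive model. No member passed at an adjusted p-value below 0.05, with or without a 2-fold requirement, where 0.673% of all genes tested did without it. DESeq2's Wald test also called 0 members, and 3 members, COX3, COX2 and Atp5mpl, had an unadjusted p below 0.05 in edgeR. Among all 13084 genes tested, 1037 had such a p-value in edgeR, so these 3 of 51 members do not stand out. The lowest adjusted p was that of COX3 (0.407, log2 change 0.25 in Fgf21KO over WT, SE 0.096). In sham muscle, KS over WS, the 6 mitochondrial members had log2 ratios of 0.20 to 0.33 and the nuclear members a median of 0.08 with a range of -0.07 to 0.26. In denervated muscle, KD over WD, these were -0.02 to 0.17 and -0.03 with a range of -0.12 to 0.14. No member was 2-fold apart in KS vs WS (2.04% of all genes) or in KD vs WD (1.55%), and none was 1.5-fold apart in either.

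The Fgf21KO ratio after denervation was lower than the WT ratio in 39 of 42 nuclear members and 6 of 6 mitochondrial members, where 50.8% of all genes tested had the lower ratio in Fgf21KO muscle. When scaled by total counts alone, this held for 24 of 42 nuclear and 6 of 6 mitochondrial members, and for 38.3% of all genes tested. The median difference, Fgf21KO pair minus WT pair, was -0.08 for the nuclear and -0.16 for the mitochondrial members with TMM, and -0.01 and -0.08 on total counts alone, where the median of all genes was 0.07. With TMM the lowest differences were those of ATP8 (-0.22), ATP6 (-0.21), Uqcrfs1 (-0.20) and Uqcrb (-0.20), and Uqcr11 (0.03), Uqcr10 (0.01) and Cox5b (0.00) were the exceptions. These differences come from the same 4 libraries as KS vs WS and KD vs WD, and they were not tested.

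Genes that build or serve these complexes went both ways. Of 42 tested assembly and carrier genes, 15 fell and 5 rose, beside 27.0% and 26.6% of all genes tested, with a median log2 change of -0.13. Scaled by total counts alone, 4 fell and 17 rose, beside 12.8% and 46.7% of all genes, with a median of 0.19. For complex II, the assembly factor Sdhaf3 changed by -0.62 (SE 0.148, edgeR adjusted p 0.00082) and Sdhaf2 by 0.19 (SE 0.081, edgeR adjusted p 0.0496), a call that DESeq2 and other size factors did not give. For complex III, Bcs1l, which inserts the Rieske protein, was the gene of 6 that fell (-0.38, SE 0.110, edgeR adjusted p 0.00404). For complex IV, 8 of 25 fell and 4 rose. Cox10 and Cox15 act in sequence in making the haem A of COX1, and they moved apart, Cox10 by -0.98 (SE 0.083, edgeR adjusted p 4.5e-11) and Cox15 by 0.39 (SE 0.081, edgeR adjusted p 0.000191). The others that rose were Cox18 (0.56), which helps place COX2 in the membrane, and Cox17 (0.32) and Cox19 (0.74) of the copper route to COX1 and COX2. Cox11 of the same route fell (-0.33). For complex V, 4 of 6 fell, among them the F1 assembly factors Atpaf1 (-0.22) and Atpaf2 (-0.27), which lay above 0 on total counts alone. Cycs, cytochrome c itself, which carries electrons from complex III to IV, changed by -0.54 (SE 0.073, edgeR adjusted p 2.75e-07), close to Sdha.

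Of 7 genes for mitochondrial content, 5 fell and 1 rose, beside 27.0% and 26.6% of all genes tested, with a median of -0.45. On total counts alone 3 fell and 2 rose, beside 12.8% and 46.7% of all genes, with a median of -0.125. Slc25a4, the muscle form of the carrier that exchanges ADP and ATP, was at -1.03, and citrate synthase (Cs) and the outer membrane channel Vdac1 were at -0.50 and -0.54. The import receptor Tomm20 was at 0.10 and did not pass (edgeR adjusted p 0.293), and the matrix chaperone Hspd1 rose by 0.26. The members' median of -0.39 lay near that of these genes.

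Fibre and cell type markers moved as well at TMM scaling, at which 27.0% of all genes tested fell and 26.6% rose. With total counts alone those shares were 12.8% and 46.7%. Lower calls, on total counts alone, went from 5 to 4 in the endothelial, from 4 to 2 in the fibroblast and progenitor, and from 2 to 1 in the fibre genes, and the medians of the fibroblast and adipocyte lists went from -0.44 to -0.12 and from -0.37 to -0.05. Of 10 fibre genes listed 3 were analysed, and of these Mylpf and Myh1, of fast fibres, fell (-0.86 and -0.47) and Tnnt1, of slow fibres, rose (2.91). All 7 macrophage and leukocyte genes had log2 ratios above 0 in both pairs, though Itgam was only at 0.01 in the WT pair and Cd163 at 0.115 in the Fgf21KO pair. In edgeR 6 of 7 passed the test, but DESeq2's Wald test did not call Adgre1, Csf1r, Ptprc or Itgam. The summed level of the 7 genes was 15.1 and 14.7 CPM in the sham libraries and 39.8 and 37.9 in the denervated ones. Cd68 had 23 and 32 counts in WS and KS and 350 and 333 in WD and KD. Endothelial genes fell in 5 of 5 cases, with a summed level of 327 to 409 CPM in sham and 179 to 186 CPM in denervated muscle. Of 6 fibroblast and progenitor genes 4 fell, with a summed level of 596 to 619 CPM in sham and 404 to 421 CPM in denervated muscle. Of 2 adipocyte genes analysed, of 4 listed, Fabp4 fell, from 242 and 245 CPM for the list in sham to 174 and 178 CPM in denervated muscle. Of 4 Schwann cell genes listed only Pmp22 was analysed here, and it fell (-2.25). None of the markers analysed was at 0, and 12 of 36 listed were not analysed here. The part of these shifts in the members' ratios was not tested, and in whole muscle fewer cells of a type and less RNA per cell cannot be told apart.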

How the data were processed

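TA muscle RNA, pooled from 4 muscles per group, was sequenced after poly(A) selection with a stranded kit. The authors deposited unnormalized read counts of each gene. The log2 values they deposited in another table are scaled counts, with 1 scale factor for each library and 1 added before the log, and carry no correction for gene length. Per the labels, reads were checked with FastQC and build GRCm39 was used. The aligner and counter are not given in the sources used here.

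The software was edgeR 4.0.16 and DESeq2 1.42.0 under R 4.3.3, with Python 3.11.15, pandas 2.3.3 and matplotlib 3.10.9. Tests covered the 13084 of 13825 genes whose mean count was 10 or more, with TMM scaling, and log2 ratios of single libraries used log2 CPM at a prior count of 2. Denervation and genotype were tested in an additive model with the quasi-likelihood test of edgeR, at a Benjamini-Hochberg adjusted p below 0.05 with and without a 2-fold change. Its common biological coefficient of variation was 0.0681. In simulated data the test was checked for recovery of known changes. Total counts were 25249879 (WS), 29150147 (WD), 34141303 (KS) and 27740920 (KD), at which 3 counts equal 0.129, 0.0919, 0.101 and 0.097 CPM. Intervals and floors cover counting error only. Lengths are medians over the protein-coding transcripts of GENCODE M21 on GRCm38, where Atp5pb and Atp5md were matched by older symbols. Start regions came from RefSeq on GRCm38.p6. All coordinates are of GRCm38, not of the build named by the authors.

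Members, gene lists and motifs were chosen with earlier results of these data known. Genes given in full are the mitochondrial and complex II members, the highest and lowest of each complex, the isoform sets, and Cyc1, Uqcrfs1, Atp5a1 and Atp5b. Others named were chosen after their values were seen. Of 44 assembly and carrier genes listed, 42 were tested. Alternatives were DESeq2 size factors, total counts, TMM without mitochondrial genes, no filter or a minimum mean count of 50, a smaller prior count or one of 5, the log2 values deposited by the authors, DESeq2's Wald test, a model without the other factor, summed counts, and other fold thresholds. Of 36 cell type markers listed, 12 were not analysed here, and a further marker is not reported here.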

Additional observations from a re-analysis of the deposited data

How the results depend on the processing

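No paired analysis was possible because the RNA of each group was pooled into 1 library, and no library could be left out for the same reason. DESeq2 size factors, TMM without mitochondrial genes, no filter or a minimum mean count of 50, smaller or larger prior counts, and the deposited log2 values changed no direction and no call among the member counts, the complex medians and the 27 members given in full. Without a fold threshold 44 members passed for denervation, and at 1.5-fold 10 members differed in the WT pair and 15 in the Fgf21KO pair. On total counts alone 20 members fell and 6 rose, and the nuclear medians of complexes II, III, IV and V were -0.242, -0.047, 0.019 and 0.019 in the WT pair and -0.205, 0.024, 0.021 and -0.037 in the Fgf21KO pair. This alternative sets the median of all genes to 0.287 and 0.364. It also placed Uqcrh (0.133), Atp5g2 (0.272), Cox6a1 (0.005), Cox6b1 (0.094), Cox7a2 (0.082), Uqcrfs1 (0.114) and Atp5b (0.006) above 0, ended the calls of 22 members, Sdhd, Cyc1 and Atp5g3 among them, turned that of Atp5k from lower to higher (0.15), and gave calls in the higher direction for Cox7a2l (0.401), Atp5g2, Atp5h (0.23) and Atp5mpl (0.17). DESeq2's Wald test called 40 members lower and left out Uqcrh, Cox6a1 and Atp5k, and the model without genotype left out Atp5k. With summed counts in place of medians, abundant genes weigh more. The mitochondrial minus nuclear difference was then -0.327 in the WT pair and -0.399 in the Fgf21KO pair, complexes IV and V were at -0.375 and -0.342 in the WT pair, and complexes III and IV at -0.433 and -0.438 in the Fgf21KO pair. Of 73 assembly, content and marker genes, total counts alone ended 17 calls, with 4 of them changing sign (Pnkd, Taco1, Atpaf1, Atpaf2), and added 14. DESeq2's Wald test ended 12, among them Bcs1l, Cox11, Cox18, Atpaf1, Atpaf2, Dcn, Adgre1, Csf1r, Ptprc and Itgam. The other fits ended at most 2 (Sdhaf2, Itgam) and added at most 3. With 1 library per group, differences between mice could not be measured, and Cox6a1, Cox8a and the pseudogenes rest on the fewest counts.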
